A study of Homo sapiens with 4 samples.

Results

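TRA2A and TRA2B are paralogous human genes for SR-like splicing factors, and the events described here are all rows of the deposited skipped exon table whose gene symbol is TRA2A or TRA2B. There were 23 such events of 65601 in the table, 16 for TRA2A (ENSG00000164548.6, minus strand of chromosome 7) and 7 for TRA2B (ENSG00000136527.13, minus strand of chromosome 3), covering 9 and 6 distinct exons. A skipped exon event is a middle exon with an exon on each side. Reads across either junction of the middle exon count as inclusion reads, and reads that join the outer exons directly count as skipping reads. The inclusion level is the share of transcripts with the middle exon, corrected for the length of each form.

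The libraries came from 293T cells, a human embryonic kidney line. Per the labels, 2 libraries were from cells given an antisense oligonucleotide of the gapmer type against SNORD89, a box C/D small nucleolar RNA, and 2 were from cells with no treatment; the labels name no control oligonucleotide, and carry 1 transfection protocol (70 nM, RNA at 48 hours) for all 4 libraries. The comparison asks which exons are spliced differently when SNORD89 is depleted. The table has 2 sets of 2 libraries, and neither its header nor the labels tie a set to a group. Directions are therefore stated between the first and the second set alone, and libraries are numbered by their place in the table, not by the replicate numbers of the labels. Where 4 values stand together, both first set libraries come before both second set libraries, and "against" separates the sets.

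TRA2 proteins have an RNA recognition motif between RS domains, rich in arginine and serine, and bind GAA-rich RNA in exons, where they promote splicing of the bound exon. Both genes carry an alternative exon near their start, often called a poison exon, that holds stop codons. TRA2B protein is known to bind its own poison exon and to raise its inclusion, which lowers the amount of productive mRNA. The same exon type is found in most genes for SR proteins.

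The extra exons lie between exon 1 and exon 2 of each gene, numbered here along the main coding transcripts of GENCODE release 29 (TRA2A-201 and TRA2B-205). That release is on GRCh38 and was used for names, reading frames and sequences only. Of the 23 events, 18 had the spacing of 3 consecutive exons of an annotated transcript, and for the other 5 the splice sites were annotated but in no single transcript. In TRA2B the extra exon is 276 nt long (185649365 to 185649640, hg19). In TRA2A an acceptor site at 23562051 (hg19) opens exons of 312, 301 and 79 nt, which differ in their donor site, and a form of 726 nt that runs on through exon 2. A separate 90-nt exon (23570800 to 23570889) lies close behind exon 1 of TRA2A.

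Coding stretches of the extra exons are shown because they carry GAA triplets, by which TRA2 proteins recognise RNA, and in TRA2B the stop codon. Capitals mark each GAA on the transcribed strand. The first sequence is the whole 79-nt exon of TRA2A (chr7:23522354-23522432, GRCh38, minus strand), and the second is the TRA2B 276-nt exon from its first base to its first in-frame stop codon (chr3:185931772-185931852, GRCh38, minus strand).
TRA2A 79-nt exon: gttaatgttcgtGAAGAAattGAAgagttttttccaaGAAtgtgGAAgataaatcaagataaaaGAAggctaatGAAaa
TRA2B 276-nt exon, first part to the stop: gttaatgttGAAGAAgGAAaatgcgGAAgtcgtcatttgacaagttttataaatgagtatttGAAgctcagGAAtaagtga

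Both exons open with the same 9 bases, and both then run into GAA repeats. Read from the start codon in exon 1, the TRA2B transcript with the 276-nt exon (TRA2B-206) meets TGA at base 79 of that exon, after 38 codons. In TRA2A the 301-nt and 312-nt exons give TAG at base 142, after 59 codons, and the 90-nt exon gives TGA at its first base, after 12 codons. The 79-nt exon has no stop of its own in this frame, but shifts the frame so that TAG follows at base 75 of exon 2. For comparison, TRA2A-201 has 282 codons and TRA2B-205 has 288. GENCODE lists TRA2B-206 and TRA2A-203, the transcript with the 79-nt exon, as targets of nonsense-mediated decay, the process that degrades mRNAs with an early stop. It lists the TRA2A transcripts with the 301-nt or the 90-nt exon as protein coding, with a start codon further on. The inclusion levels below are of RNA present in the cells, so splicing and decay of a form cannot be told apart.

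The richest 30-base windows of the longer exons show how dense these triplets become. They lie at bases 193 to 222 of the TRA2B exon (chr3:185931631-185931660, GRCh38, minus strand) and at bases 184 to 213 of the 301-nt TRA2A exon (chr7:23522220-23522249, GRCh38, minus strand).
TRA2B 276-nt exon, window: GAAtttGAAacgGAAGAAtGAAGAAaaGAA
TRA2A 301-nt exon, window: tGAAttgggGAAGAAtacacGAAgtatGAA

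The whole TRA2B exon held 28 GAA triplets and the TRA2A 301-nt exon 32. The motif was counted on the transcribed strand, where copies cannot overlap; on the other strand, read as TTC here, the counts were 0 and 2. Among the internal exons of release 29, 191 are 276 nt long, with a median of 5 GAA, and 77 are 301 nt long, with a median of 6. GAA occurred at least once in 99.0% and 100% of these, and in each length class the TRA2 exon alone reached its count. The 79-nt exon held 7, a count reached by 21 of 1373 exons of that length (1.53%). A triplet count describes these letters and is no measurement of binding.

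**Figure D1:**
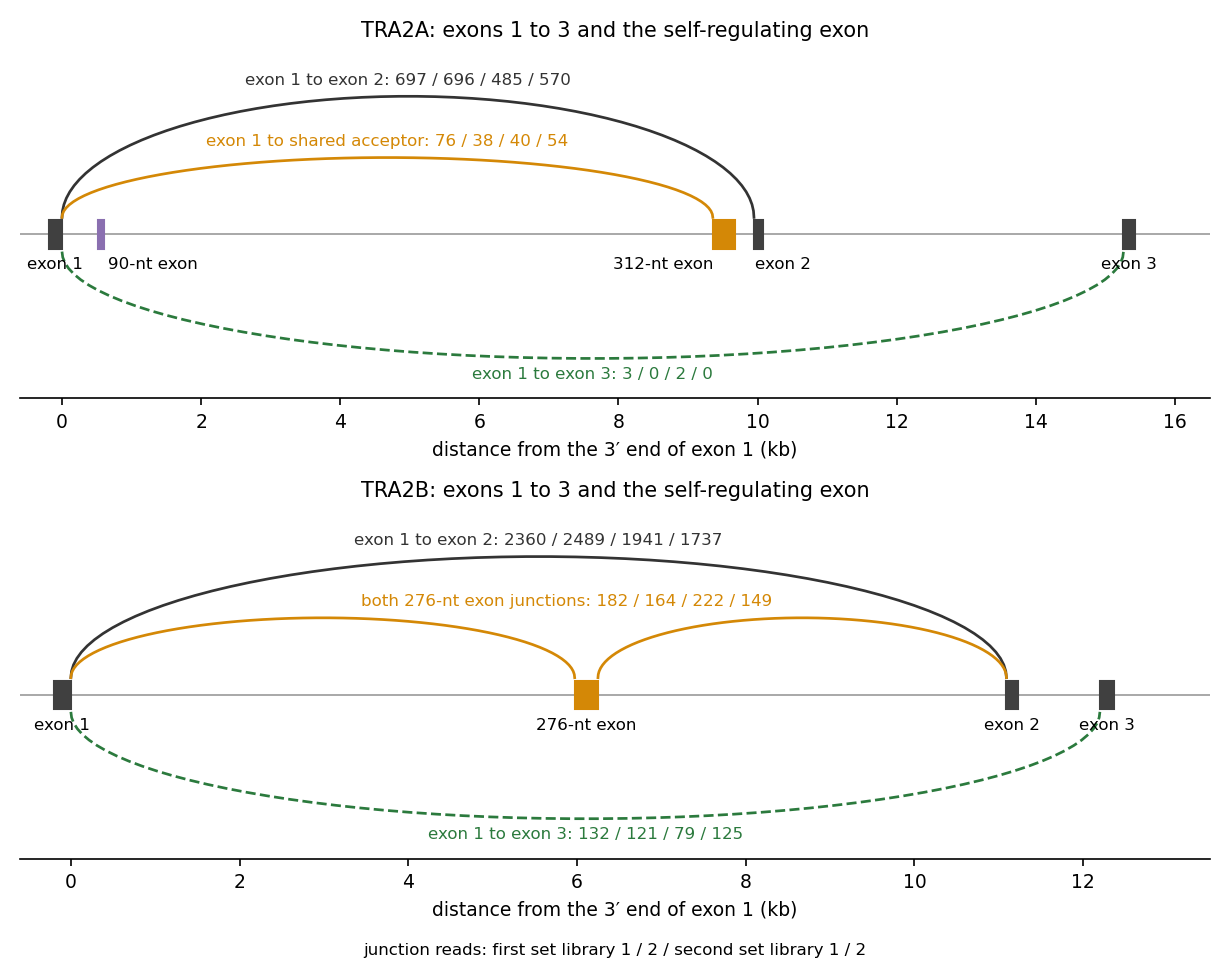
Exons 1 to 3 of TRA2A and TRA2B to scale, as distance from the 3′ end of exon 1 in kb, with arcs for splice junctions and the junction reads of the 4 libraries written on each. Most reads that leave exon 1 go to exon 2, and reads from exon 1 to exon 3 are 132, 121, 79 and 125 in TRA2B against 3, 0, 2 and 0 in TRA2A.

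No TRA2A or TRA2B event was called different between the sets. In the authors' deposited table, 0 of 23 events had a false discovery rate (FDR) under 0.05. Of the 23 events, 21 (14 of TRA2A, 7 of TRA2B) reached the depth set for testing, a mean of 20 junction reads. When a difference of 10 percentage points or more was also required, 0 of these 21 were called. The same rule called 2.71% of all 54503 events of that depth. At so low a share, 0 calls among 21 events does not set the TRA2 events apart. In a quasi-binomial model fitted to all tested events, whose error term is the variation from library to library as estimated in common over events, 0 of the 21 had an adjusted p-value under 0.05 (Benjamini-Hochberg), as against 0.00367% (2 events) of all tested. At an unadjusted p under 0.05 stood 1 of 21 events by this model (3.59% of all tested) and 1 of 21 in the authors' deposited table (14.3% of all tested), the TRA2B 276-nt exon both times. With limma, fitted to log2 ratios of inclusion over skipping reads, the counts were 0 adjusted (0% of all tested) and 0 unadjusted (4.87%). The median absolute difference of the 21 events was 0.00335 in inclusion level, beside 0.0113 over all tested events. The 21 had means of 53 to 4030.5 reads, and several share reads, whereas all tested events start at a mean of 20. The 2 medians were not matched for depth.

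The TRA2B 276-nt exon, through which TRA2B limits its own mRNA, was a minor form in every library. First set libraries included it at 3.71% (3.21 to 4.29, 95% interval) and 3.19% (2.74 to 3.71). Second set libraries included it at 5.41% (4.74 to 6.16) and 4.11% (3.50 to 4.82). These values rest on 182, 164, 222 and 149 inclusion reads and 2360, 2489, 1941 and 1737 skipping reads. The intervals here and all later ones on a level or a share are Wilson intervals and cover counting error only. An interval on a difference between the sets comes from the quasi-binomial model instead. The 2 libraries of the first set lay below both libraries of the second set, and the 2 libraries of the second set differed by about as much as the sets did. It was the only 1 of the 21 tested events whose sets did not overlap. Over all tested events with reads in every library, 22.8% did not overlap. Where each set has a library without skipping reads, the levels tie and the sets cannot separate. Many of the 21 events were of this kind, and several share reads. The comparison with 22.8% is therefore no measure of how stable TRA2 splicing was.

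In means, the level was 3.45% ± 0.370 in the first set and 4.76% ± 0.917 in the second (SD, n = 2 each). The difference was -1.31 percentage points (SE 0.699 over libraries). For a difference of -0.013 the authors' deposited table lists p = 0.00844 and FDR 0.0983. By the quasi-binomial model the unadjusted p was 0.0187 and the adjusted p 0.853, with an interval of -2.51 to -0.207 points for the difference in levels from summed reads. That model took 1 spread common to all events, 3.58 times binomial sampling, where the spread of this exon itself was 4.38 times. The difference thus did not pass either test after adjustment. It rested largely on library 1 of the second set: without that library it was -0.662 points, and without the others it lay between -1.05 and -1.96. With 2 against 2 libraries an exact two-sided permutation test cannot go below p = 0.333.

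**Figure D2:**
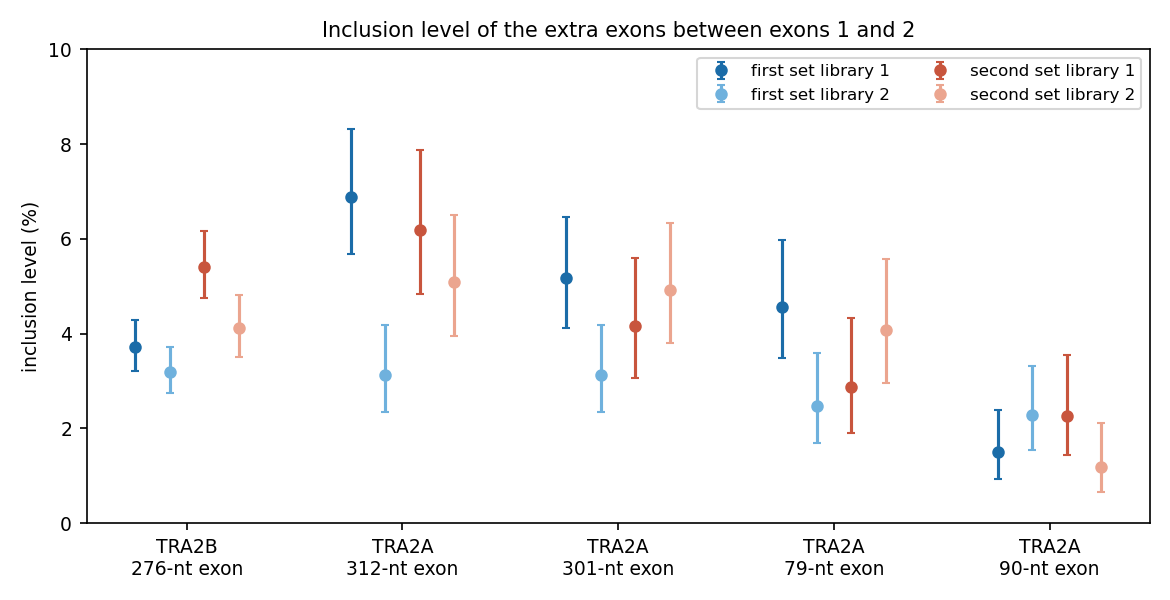
Inclusion level in percent of the 5 extra exons between exons 1 and 2, with 1 point per library and bars for the 95% Wilson interval. The TRA2B 276-nt exon lies between 3.19% and 5.41%, with both first set libraries lowest, and for each TRA2A exon the libraries of the sets interleave.

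In TRA2A the longest of these exons, 312 nt (23561740 to 23562051, hg19), had the most reads of the TRA2A events with a mean inclusion level from 5% to 95%. First set libraries stood at 6.88% (5.67 to 8.33) and 3.13% (2.34 to 4.18), and second set libraries at 6.19% (4.84 to 7.88) and 5.08% (3.95 to 6.51). It had 103, 45, 64 and 61 inclusion reads and 697, 696, 485 and 570 skipping reads. Most of these inclusion reads were on the junction into the acceptor that the shorter forms share. The highest and the lowest library were both in the first set, so the sets overlapped. The means were 5.01% ± 2.65 and 5.63% ± 0.785 (SD, n = 2 each). The difference of -0.628 points (SE 1.95 over libraries) was smaller than the spread within the first set, with an adjusted p of 0.860 by the quasi-binomial model. The authors' deposited table lists its FDR as 1. Without library 2 of the first set it became 1.25 points, a change of sign.

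The other extra exons of TRA2A also stayed in the low percents. For the 301-nt exon (23561751 to 23562051) the level was 5.17% and 3.13% against 4.15% and 4.92%, mostly from reads on the shared acceptor junction. The 79-nt exon (23561973 to 23562051) stood at 4.56% and 2.47% against 2.88% and 4.07%. The 90-nt exon spliced to exon 2 was rarer, at 1.498% and 2.28% against 2.26% and 1.19%. In none of the 3 did the sets separate, and their differences of -0.385, 0.0438 and 0.162 points were each below the SE over libraries (1.09, 1.20 and 0.663). Adjusted p-values by the quasi-binomial model were 0.880, 0.999 and 0.918.

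These TRA2A levels are not independent of each other. The 312-nt, 301-nt, 79-nt and 90-nt events share the same skipping reads, those from exon 1 to exon 2, and the first 3 also share the junction from exon 1 to the common acceptor. Since several events contain the same junction, single junctions could be solved by subtracting one event from another, assuming that a shared junction was counted alike in each. The junction from exon 1 to the shared acceptor had 76 and 38 reads against 40 and 54. A second event that contains it, the 726-nt form with exon 4 after it, gave 74, 39, 40 and 54.

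As a share of the reads from exon 1 to either the shared acceptor or exon 2, use of the acceptor was 9.83% (7.93 to 12.1) and 5.18% (3.79 to 7.03) in first set libraries. Second set libraries used it at 7.62% (5.64 to 10.2) and 8.65% (6.69 to 11.1). The second set lay inside the range of the first, with means of 8.14% ± 0.732 and 7.50% ± 3.29 (SD, n = 2 each). This is a share of reads at 1 donor site and needs no correction for length.

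Reads out of the extra exon showed which donor was used. The donor of the 312-nt form joined exon 2 in 27 and 7 reads against 24 and 7. In each set 1 library was high and 1 low, and the sets overlapped. The donor of the 301-nt form, which lies 11 bases before the other, had 0, 7, 2 and 5 reads. Together these donors took 27, 14, 26 and 12 reads, fewer than entered the shared acceptor from exon 1 in each library. In library 1 of the first set, all 76 inclusion reads of the 301-nt event were on the shared acceptor junction. The levels of the 312-nt and 301-nt exons thus do not by themselves show use of their donors. No event of the table separates the 79-nt donor from transcripts that run on into exon 2. The inclusion reads of the 79-nt event, 51, 27, 22 and 37, were fewer than the reads on its own acceptor junction, so that junction was not counted alike in this event, and its level does not by itself show use of the 79-nt donor.

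The 90-nt exon, which puts a stop codon straight after exon 1, joined exon 2 in 12 and 11 reads against 11 and 3. When the 301-nt exon rather than exon 2 was taken as the following exon, the level of the 90-nt exon was 8.28% and 21.8% against 18.9% and 17.2%, from 55 to 87 reads. Library 1 of the first set was lowest there, and the sets overlapped.

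Both remaining shallow events of TRA2A are listed for completeness, as their mean depth was under 20 reads. The 301-nt exon with the 90-nt exon before it had levels of 22.6%, 31.2%, 31.2% and 71.4% from 18 to 21 reads. The 166-nt exon 3 before a long form of exon 5 had 7, 3, 15 and 4 inclusion reads and 0, 2, 0 and 0 skipping reads. Their differences of -24.4 and -28.6 points were the largest of the 23 events, with FDR values of 0.571 and 1 in the authors' deposited table.

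Skipping of exon 2, a 134-nt coding exon in both genes, differed between the paralogs. In TRA2B (185644389 to 185644522, hg19), leaving it out joins exon 1 to exon 3, and release 29 has a coding transcript of this kind (TRA2B-203) with a start codon in exon 3; from the usual start codon the frame stops after 13 codons. Reads from exon 1 to exon 3 made up 5.30% (4.48 to 6.25) and 4.64% (3.89 to 5.51) of those from exon 1 to exon 2 or 3 in first set libraries. In second set libraries they made up 3.91% (3.15 to 4.85) and 6.71% (5.66 to 7.94). The same junctions of TRA2A (exon 2 at 23561326 to 23561459) gave 3 of 700 reads (0.429%), 0 of 696, 2 of 487 (0.411%) and 0 of 570. The counts of 0 allow a share of up to 0.431% and 0.526% at a limit of 3 reads, and of up to 0.549% and 0.669% by the Wilson interval.

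In each of the 4 libraries the TRA2B interval lay wholly above the TRA2A interval. Over all libraries the mean was 5.14% ± 1.19 for TRA2B and 0.210% ± 0.242 for TRA2A (SD, n = 4), and the ratio of summed shares was 24.96. Over the summed reads the shares were 5.09% (4.65 to 5.56) and 0.204% (0.0871 to 0.476). Between the sets the share did not separate in either gene. The inclusion level of TRA2B exon 2 was 94.8% and 95.2% against 95.9% and 92.8%, from 3179 to 4690 reads. The difference was 0.659 points (SE 1.56 over libraries), with an adjusted p of 0.853 by the quasi-binomial model, and changed to -0.889 points without library 2 of the second set.

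The 2 exons have the same length, and 57 of 134 bases are identical when set base against base without gaps (42.5%). In the same way 73.0% of the 189 bases of exon 4 and 75.9% of the 116 bases of exon 5 are identical. Stretches shared at a shifted position do not count here, and no comparison with gaps was made. Both copies of exon 2 are shown in full because they differ most in skipping, with GAA in capitals (chr7:23521707-23521840 and chr3:185926601-185926734, GRCh38, minus strand).
TRA2A exon 2: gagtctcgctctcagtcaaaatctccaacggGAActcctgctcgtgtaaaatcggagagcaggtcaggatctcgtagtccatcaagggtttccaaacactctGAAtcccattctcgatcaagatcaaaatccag
TRA2B exon 2: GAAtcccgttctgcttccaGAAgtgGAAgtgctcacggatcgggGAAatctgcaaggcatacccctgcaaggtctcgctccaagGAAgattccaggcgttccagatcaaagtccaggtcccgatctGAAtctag
TRA2A exon 2 held 2 GAA triplets and TRA2B exon 2 held 6, where the median of 1375 internal exons of 134 nt was 3 and 91.1% had at least 1.

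**Figure D3:**
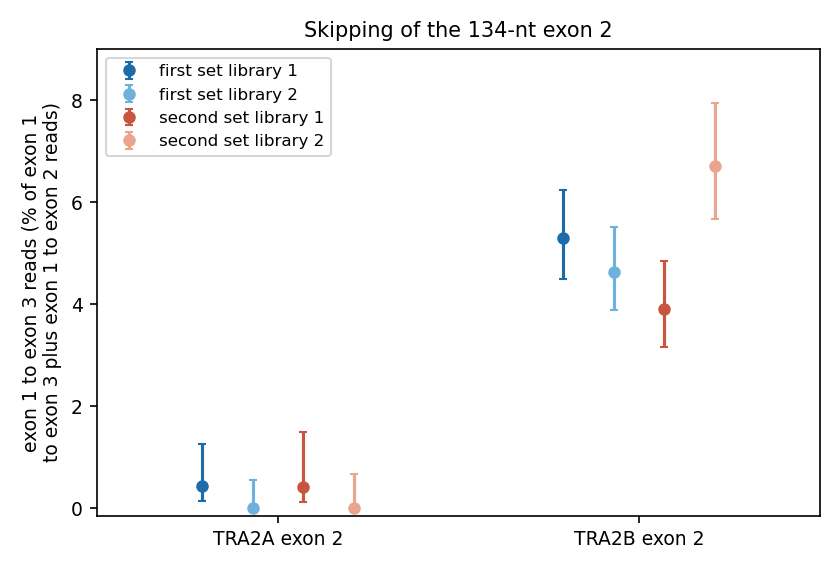
Reads from exon 1 to exon 3 as a percent of those plus reads from exon 1 to exon 2, per library, with 95% Wilson intervals. TRA2B exon 2 is skipped in 3.91% to 6.71% of these reads and TRA2A exon 2 in at most 0.429%, with no order between the sets.

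The other events concern exons that code for the rest of the protein, and 14 of the 21 tested events had a mean inclusion level above 95%. Exon 4 of TRA2A (189 nt, 23552513 to 23552701), with exon 3 before it, was included at 99.6% and 99.7% against 98.6% and 99.6%. It was skipped in 4, 3, 13 and 4 reads of 1773 to 1926. Exon 6 of TRA2A (129 nt) was skipped in 0, 2, 0 and 0 reads of 295 to 394. For exon 3 (166 nt, with exon 2 before it) the skipping reads were 0, 2, 0 and 0 of 1762 to 2128. Exon 4 with exon 1 before it was skipped in 0, 2, 0 and 0 reads of 756 to 999. Reads from exon 1 straight to exon 4 numbered 1, 0, 0 and 4. They are the skipping reads of 3 TRA2A events: exon 3 with exon 1 before it (889 to 1028 reads), exon 2 with exon 4 after it (433 to 614 reads) and the 726-nt form with exon 4 after it (39 to 75 reads).

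In TRA2B, exon 7 (60 nt, 185637225 to 185637284) was skipped in 5, 6, 8 and 0 reads of 1059 to 1302 when followed by the 74-nt exon 8. When followed by the 71-nt form of exon 8, which starts 3 bases further in, it was skipped in 0, 2, 0 and 0 reads of 242 to 297. Exon 6 (84 nt) was skipped in 0, 0, 3 and 0 reads and exon 4 (189 nt) in 0, 0, 6 and 0, all in library 1 of the second set. A 213-nt form of exon 4 had the same 6 skipping reads. In these 5 TRA2B events the sets differed by at most 0.578 points. The 726-nt TRA2A form had levels of 87.1% to 100%, but its events count as skipping only reads that pass over exon 2 altogether and leave out the reads from exon 1 to exon 2. That level is therefore not the share of transcripts that keep this form.

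Read depth along both genes moved with the sets. Reads were not scaled for library size. Over all tested events the median ratio of second to first set reads was 0.877 (quartiles 0.604 and 1.15), so a ratio of 1 does not mark an unchanged gene. The junction reads of the TRA2A exon 6 event were 348, 295, 379 and 394, so the mean of the second set was 1.202 times that of the first. For the exon 4 event it was 1.06 times, for the exon 3 event with exon 2 before it 0.866 times, and for the exon 2 event with exon 3 after it 0.794 times. The other tested TRA2A events ranged from 0.740 to 0.914 times, except exon 4 with exon 1 before it at 1.25 times. In TRA2B the ratio was 0.972 and 1.02 in the 2 events of exon 7 and 1.03 at exon 6. It was 0.902 at exon 4, 0.993 for its 213-nt form, 0.721 at exon 2 and 0.779 at the 276-nt exon. In both genes the ratios were lower in the 5′ part than in the 3′ part, without falling at every step. From the last to the first tested exon, the log2 ratio of second to first set reads changed by -0.55 in TRA2A and by -0.35 in TRA2B.

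The same held over the table. In 2639 genes with at least 6 tested exons, the median of the same change was -0.50 on the log2 scale, and 86.7% of genes were lower at the 5′ end. It was -0.58 for library 1 and -0.45 for library 2 of the second set, and -0.19 for library 2 against library 1 of the first set. TRA2A and TRA2B stood at percentiles 45.5 and 60.9 of these genes. Libraries whose reads lean towards the 3′ end are a common sign of lower RNA quality after poly(A) selection; its part in the inclusion levels above was not tested.

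**Figure D4:**
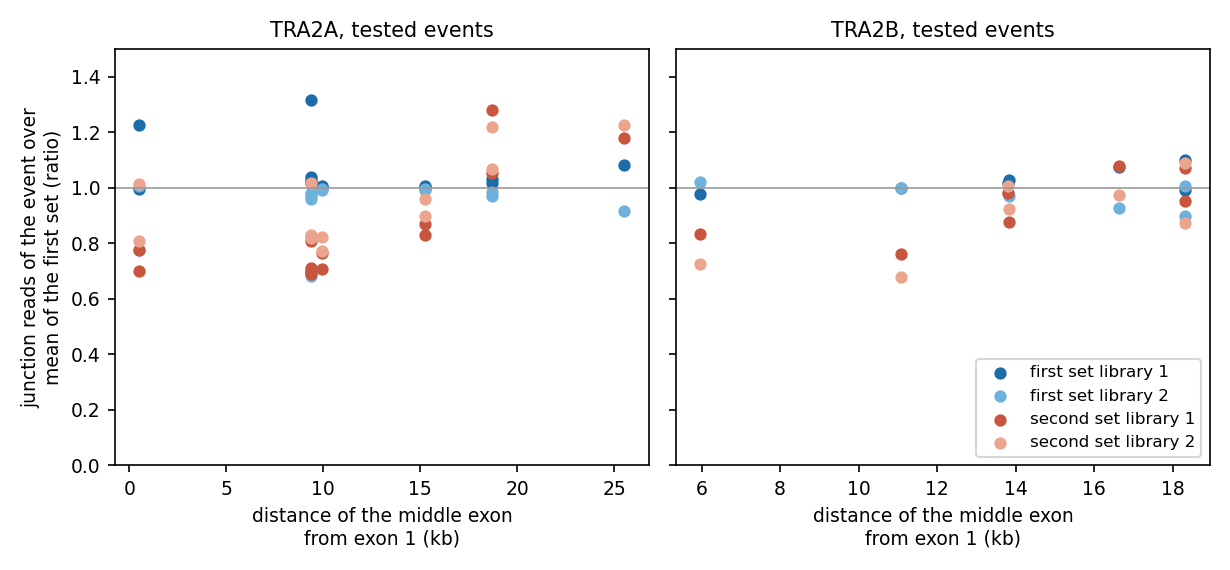
Junction reads of each tested event as a ratio to the mean of the first set, against the distance of its middle exon from exon 1 in kb, with 1 point per library. Second set libraries lie mostly below 1 near exon 1 and between 0.872 and 1.23 at the last tested exon of each gene. Reads are not scaled for library size.

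TRA2B had more reads than TRA2A on the junctions compared here, by a factor that depended on the junction. Exon 1 to exon 2 reads were 3.39 and 3.58 times those of TRA2A against 4.002 and 3.05 times, from 2360, 2489, 1941 and 1737 reads against 697, 696, 485 and 570. For this junction the range of the first set lay inside that of the second. At exon 4, of 189 nt in both genes, the gap was smaller. Inclusion reads there were 3741, 3526, 3185 and 3364 in TRA2B. In TRA2A, with exon 3 before it, they were 1827, 1770, 1886 and 1922. By these reads both first set libraries had a higher ratio than both second set libraries. Such ratios rest on few junctions. In bulk samples, more cells with a transcript and more of it per cell cannot be told apart.

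Among related genes, calls were few. The genes SRSF1 to SRSF12, for SR proteins and relatives (12 listed, 10 with tested events), had 0 of 44 events called at an FDR under 0.05 and a difference of at least 10 points in the authors' deposited table. Kinases that phosphorylate RS domains and binding partners of TRA2 proteins (9 genes) had 2 of 61 events called (3.28%), both lower in the first set and both for the same 836-nt exon of CLK4, a kinase of SR proteins. Neither CLK4 event passed by the quasi-binomial model (adjusted p = 0.853 for both, unadjusted 0.131 and 0.0442); the first rests on 19 to 32 reads per library and the second on 62 to 113. Genes with exons reported as TRA2 targets (10 listed, 9 tested) had 2 of 60 called (3.33%). The called shares of the kinase and target lists are near the 2.71% of all tested events. By the quasi-binomial model 0 events of the 3 lists passed adjustment. An unadjusted p under 0.05 was reached in the authors' deposited table by 11 SRSF events (25%), 6 kinase and partner events (9.84%) and 7 events of target genes (11.7%), beside 14.3% of all tested. By the quasi-binomial model it was reached by 5 (11.4%), 4 (6.56%) and 4 (6.67%), beside 3.59%. Events of 1 gene share reads, so these shares are not counts of independent exons. The median absolute difference of the 3 lists was 0.00413, 0.00517 and 0.00567, beside 0.0113 over all tested events, again without matching for depth.

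Of the called exons in the target genes, 1 is well covered. The list was taken by gene, and whether a called exon is the one reported as a TRA2 target was not checked. The 224-nt exon of CHEK1 (125497502 to 125497725 on chromosome 11, hg19), in the gene for the checkpoint kinase CHK1, had inclusion levels of 0.897 and 0.818 against 0.759 and 0.715. It rested on 554, 450, 336 and 379 reads. Both first set libraries lay above both second set libraries, with an FDR of 0.00278 for a difference of 0.12 in the authors' deposited table. By the quasi-binomial model it did not pass (p = 0.00703, adjusted p = 0.853), and without library 2 of the second set the difference was 0.0986. The other called exon, of 63 nt in HIPK3, a protein kinase gene, had only 8 reads in each second set library. Its levels were 0.364 and 0.275 against 0.831 and 1, and the authors' deposited table lists FDR 9.71e-05 for a difference of -0.596. The adjusted p by the quasi-binomial model was 0.853.

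Exons of other genes came close to the TRA2 events in all 4 libraries, as is usual among many exons. Over 5779 events of other genes with a mean of at least 100 reads, the nearest to TRA2B exon 2 was a 192-nt exon of ZW10, at a root mean square difference of 0.241 points over the 4 libraries, followed by exons of APEH (0.394) and GTF3A (0.462). Nearest to the TRA2A 312-nt exon were exons of C20orf24 (0.458), TMEM39B (0.542) and MED17 (0.795).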

How the data were processed

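The 4 libraries were poly(A)-selected RNA-seq of 293T cells, sequenced in pairs (150 bp), as the labels' protocols state. Build hg19 and the tools cutadapt and STAR are named in the submitters' processing notes; their versions, the splicing program's version and the annotation release are not given in the sources used here. Per the file headers, the authors deposited skipped exon output in the layout of rMATS on junction reads: inclusion and skipping read counts and the inclusion level as a fraction for 2 libraries in each of 2 sets, the effective form lengths, a p-value and its FDR per event, and the difference in inclusion level, a score that is the mean of the first set minus that of the second. Levels recomputed from the reads were within 0.0005 of the deposited levels. Junction reads summed over events came to 38613055 and 39012939 (first set) and 42868431 and 43929373 (second set); the median spread between libraries was 2.75 times binomial sampling in the first set and 6.41 times in the second, and 3280 events lacked reads in library 2 of the second set, against 513 to 624 in the others.

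Events with a mean of at least 20 reads were tested. A quasi-binomial model (R 4.3.3, limma 3.58.1 squeezeVar) was fitted to all 54503, with Benjamini-Hochberg adjustment over all of them. Moderation over events gave 1 common dispersion of 3.58 for every event, so an event's own spread had no weight and the floor of 1 set for it never acted. Limma on the log2 ratio of reads (pseudocount 0.5), other read minimums and thresholds, and leaving out each library were the alternatives; adding a depth trend to the dispersion and comparing reads along genes were chosen after seeing the data. The labels call the libraries biological replicates without saying how they were raised. P-values of the quasi-binomial model rest on the spread between these libraries as estimated in common over events. GENCODE release 29 sequences were matched by exon spacing, and no position was converted between builds. Values are given for all TRA2A and TRA2B events; likeness is the root mean square difference in level at a mean inclusion of 5% to 95%, 1 event per gene. The members and gene lists were chosen with earlier results of these data known. SNORD89 itself was not analysed here.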

Additional observations from a re-analysis of the deposited data

How the results depend on the processing

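No TRA2A or TRA2B event of the 23 had an FDR under 0.05 in the authors' deposited table, so the count of called events was bound to stay 0. This held for means of at least 10 and 50 reads, no read minimum, and differences of at least 0.05 and 0.2. It also held for an FDR under 0.01, 1 event per exon, and each library left out of the difference. These settings therefore are no check of that count. By the quasi-binomial model the count of adjusted p-values under 0.05 was 0 with all 4 libraries and under its 10 alternatives, limma among them; dropping the floor on the dispersion, 1 of the 10, left the fit as it was; the smallest adjusted p over these ranged from 0.292, without library 1 of the second set, to 1. The difference of the TRA2A 312-nt exon, -0.00628 in inclusion level, ranged from -0.0250 to 0.0125 with each library left out, and turned positive without library 2 of the first set; that of TRA2B exon 2, 0.00659, ranged from -0.00889 to 0.0221 and turned negative without library 2 of the second set. The TRA2B 276-nt exon kept its sign throughout, from -0.0196 to -0.00662. In these fits the lone library of a set is assumed to vary like the others. Summing reads changed no sign in these 3. Dividing inclusion reads by 2 in place of the length correction gave 0.00688 for TRA2B exon 2. For the 312-nt and 276-nt exons, with form lengths of 298 and 149 nt, that is the same calculation and no check. The median change in read depth along genes was -0.39 on the log2 scale with genes of at least 4 tested exons. No paired analysis was possible because the columns carry no replicate numbers of the labels. Skipping reads limit what can be seen: most coding exons had under 10 per library.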
